A study of Rattus norvegicus with 20 samples.

Results

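A set of 5 rat genes of cardiac glucose use was followed across 20 ventricle libraries: the glucose transporters Slc2a1 (ENSRNOG00000007284) and Slc2a4 (ENSRNOG00000017226), hexokinase Hk2 (ENSRNOG00000006116), and the glycolytic enzymes Gapdh (ENSRNOG00000018630) and Ldha (ENSRNOG00000013009). They were chosen by name for their place in the pathway, with earlier results of these data known. They make up 5 of the 30452 genes in the count table. The table lists Ensembl identifiers only, and the names are those given with the choice of the genes.

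The libraries were made from ventricles of male rats, right (RV) or left (LV), in 4 groups of 5: RV saline, RV MCT, LV saline and LV MCT. MCT is monocrotaline, an alkaloid toxic to the vessels of the lung, which raises the load on the RV. Rats received 60 mg/kg of it, or saline, once they weighed 250 g, and the labels give death at a discomfort score of at least 7. The labels name no strain or age, and do not say whether any libraries share an animal, so the p-values refer to the spread among these libraries, which may be technical. The question was how each ventricle's expression differs between MCT and saline rats.

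Glucose enters heart cells through SLC2A1 (GLUT1), which sits largely in the surface membrane and predominates in the fetal heart, and SLC2A4 (GLUT4), the main carrier of adult heart and skeletal muscle, which insulin and contraction bring to the surface. HK2 then traps glucose by phosphorylation, GAPDH catalyses the first oxidative step of glycolysis, and LDHA makes the subunit of lactate dehydrogenase that favours lactate formation. The adult heart draws most of its energy from fatty acids, and more glucose use with a shift from GLUT4 towards GLUT1 is a known feature of loaded hearts.

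RefSeq promoters (build GRCr8) were at hand for 4 of the 5 genes, all but Slc2a4, as 300 bases from 250 before to 50 after the gene's start. Those of Slc2a1 and Ldha, both known targets of the hypoxia-inducible factors (HIF), are printed as examples. Capitals mark ACGTG on either strand, the core of the hypoxia response element that these factors bind.
Slc2a1, chr5:138002272-138002571, plus strand: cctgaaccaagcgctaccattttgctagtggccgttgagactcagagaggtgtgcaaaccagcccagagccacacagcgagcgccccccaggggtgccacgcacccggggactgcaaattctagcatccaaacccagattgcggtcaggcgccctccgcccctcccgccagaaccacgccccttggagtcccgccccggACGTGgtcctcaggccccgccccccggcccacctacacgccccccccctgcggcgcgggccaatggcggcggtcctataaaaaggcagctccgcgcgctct
Ldha, chr1:106507842-106508141, plus strand: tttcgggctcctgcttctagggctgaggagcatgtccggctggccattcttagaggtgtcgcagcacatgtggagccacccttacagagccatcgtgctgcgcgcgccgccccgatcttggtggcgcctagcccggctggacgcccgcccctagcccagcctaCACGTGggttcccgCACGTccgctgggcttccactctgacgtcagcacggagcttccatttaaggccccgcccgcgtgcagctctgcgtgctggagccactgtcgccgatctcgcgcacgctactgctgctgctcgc

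Counted from 1 at the 5′ end, ACGTG began at base 200 in the Slc2a1 window, on the printed strand. The Ldha window had 3 matches, at bases 164, 165 and 178. The first 2 overlap and form CACGTG, an E-box, which is its own reverse complement. Gapdh had 1 match and Hk2 had 0. Of 33469 promoters of this length, 19.3% held ACGTG and 6.42% held CACGTG on either strand. The GC box GGGCGG, a site of Sp factors, occurred 3 times each in the Slc2a1 and Ldha windows and in 33.1% of all promoters. These matches describe letters only.

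Total counts ran from 3272420 to 9227104 per library, and the 10 most counted genes took 25.7% to 50.2% of a library. On the first principal component 8 of 10 MCT libraries lay above all saline libraries, and LV MCT replicate 3 and RV MCT replicate 4 lay among them. Their values are therefore pointed out, and results are given also without them. Description codes that read as dates fall in May or June for replicates 1 to 3 and in November for replicates 4 and 5. RV and LV libraries of the same number and treatment carry the same code in 10 of 10 pairs, and the fits treat them as independent. Cell type markers were not checked because the identifiers could not be looked up by symbol. In whole ventricle, fewer cells of a type and less RNA per cell cannot be told apart.

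Levels are CPM, counts divided by a common measure of library size after TMM, edgeR's correction for library composition. The libraries read 3′ ends, so counts were not divided by transcript length, and the order across genes is on this scale. Over the 20 libraries Ldha averaged 321 CPM, Slc2a4 204 CPM, Gapdh 149 CPM, Slc2a1 22.8 CPM and Hk2 1.96 CPM. All 5 passed the filter on low counts. Ldha exceeded 97.5% of the 10929 genes tested, Slc2a4 95.6%, Gapdh 93.9% and Slc2a1 63.3%. Hk2 exceeded only 5.29%.

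No member passed the threshold of the main test in any comparison (edgeR quasi-likelihood test, adjusted over all genes tested, threshold 0.05). The means nevertheless differed for some members. After MCT, mean Slc2a1 was higher and Slc2a4 lower in both ventricles, Gapdh was lower in the LV, and Hk2 means were close. In the LV the Hk2 means were close only with LV MCT replicate 3 included. Ldha was higher in the RV (log2 fold change 0.38) and close in the LV (-0.028). For MCT against saline in the LV 0 of 5 were called, where 9.52% of all genes were. In the RV 0 of 5 were called, where 0.274% of all genes were. At an unadjusted p under 0.05 there were 3 of 5 in the LV (Slc2a1 higher, Slc2a4 and Gapdh lower) against 25.3% of all genes, and 1 of 5 in the RV (Slc2a4, lower) against 17.5%. In 0 of 5 members did the MCT and saline libraries separate without overlap, where this held for 7.04% of all genes for the LV and 2.38% for the RV. DESeq2 called 1 of 5 members in the LV, where it called 13% of all genes, and limma voom 3 of 5, where it called 26.6%. Both called 0 of 5 in the RV, where they called 3.68% and 2.52% of all genes. Without LV MCT replicate 3 and RV MCT replicate 4 together, edgeR called 2 of 5 in the LV against 18.1% of all genes and 0 of 5 in the RV against 9.68%. With raw totals in place of TMM these were 1 of 5 against 19.6% and 0 of 5 against 0.439%.

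**Figure D1:**
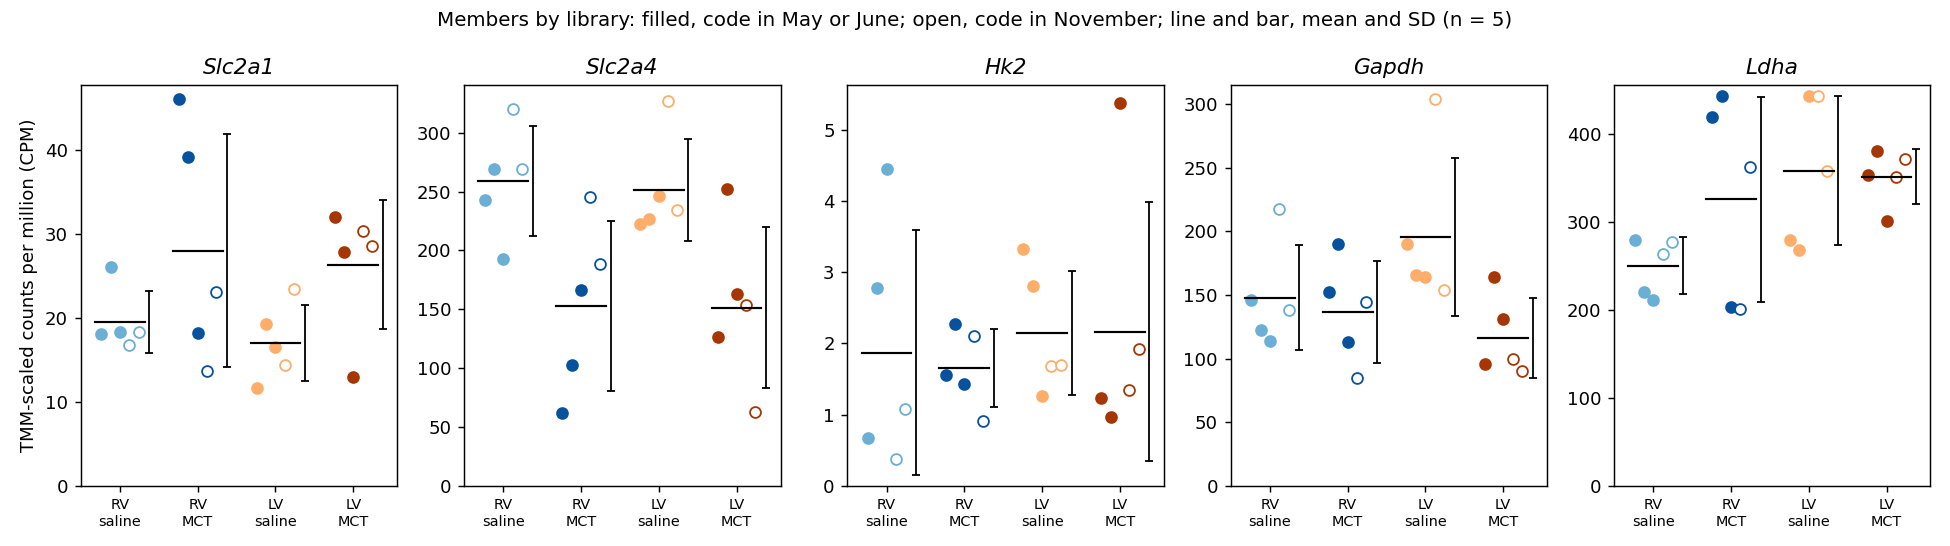
TMM-scaled CPM (vertical axes, from 0, a separate scale for each gene) of the 5 genes in each library of the 4 groups. Filled points have codes in May or June and open points in November, lines are means and bars beside them SD (n = 5); Slc2a4 means lie at 259 and 251 CPM after saline and at 153 and 151 CPM after MCT in RV and LV, with wide scatter after MCT.

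Slc2a1, the transporter of basal glucose uptake, was at 11.6, 19.3, 16.6, 14.4 and 23.4 CPM in LV saline replicates 1 to 5. In LV MCT replicates 1 to 5 it was at 32.1, 27.9, 13.0, 30.4 and 28.6 CPM. Thus 4 of 5 LV MCT libraries lay above every LV saline library, and replicate 3 lay among them. Group means were 17.1 ± 4.53 CPM for saline and 26.4 ± 7.69 CPM for MCT (SD, n = 5). This is a log2 fold change of 0.65 (SE 0.29, 95% interval 0.049 to 1.25, edgeR adjusted p = 0.16), which did not pass. An exact two-sided permutation test of 5 against 5 gave p = 0.0873, where 0.00794 is the smallest it can give. The value was 0.64 within the May and June libraries and 0.65 within the November libraries. Without LV MCT replicate 3 it was 0.81 and passed (edgeR adjusted p = 0.049), in a fit that called 15.2% of all genes.

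In the RV, Slc2a1 was at 18.1, 26.1, 18.4, 16.8 and 18.4 CPM after saline and at 46.1, 39.2, 18.2, 13.7 and 23.2 CPM after MCT, in replicates 1 to 5. Only MCT replicates 1 and 2 exceeded all saline libraries, while replicate 4 was the lowest of the 10. The log2 fold change was 0.53 (SE 0.29, 95% interval -0.062 to 1.13, edgeR adjusted p = 0.35). An exact two-sided permutation test gave p = 0.302. It was 0.74 within the May and June libraries and 0.085 within the November libraries, which include RV MCT replicate 4. Without RV MCT replicate 1 it was 0.29, and without replicate 4 it was 0.69 (edgeR adjusted p = 0.12), so its size depended on both.

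Slc2a4, the insulin-responsive carrier, was at 223, 227, 246, 327 and 234 CPM in LV saline replicates 1 to 5 and at 126, 251.8, 163, 154 and 62.4 CPM in LV MCT. All LV MCT libraries but replicate 2 lay below every LV saline library. The log2 fold change was -0.73 (SE 0.31, 95% interval -1.38 to -0.081, edgeR adjusted p = 0.14; exact two-sided permutation p = 0.0397, or 0.195 adjusted over all genes). It was -0.38 within May and June and -1.37 within November. In the RV it was at 243, 269, 193, 320.5 and 269 CPM after saline and at 61.8, 103, 166, 245 and 189 CPM after MCT.

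Here MCT replicate 4 alone overlapped the saline libraries, and replicate 1 was lowest. The RV log2 fold change was -0.76 (SE 0.31, 95% interval -1.41 to -0.11, edgeR adjusted p = 0.21; exact two-sided permutation p = 0.0238, or 0.353 adjusted over all genes). Within May and June it was -1.08, and within November -0.44. Without RV MCT replicate 4 it was -0.99, still short of the threshold (edgeR adjusted p = 0.061). The sign of the Slc2a4 difference was negative in all 20 alternatives fixed for each ventricle, and 1 of them, limma voom in the LV, passed.

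**Figure D2:**
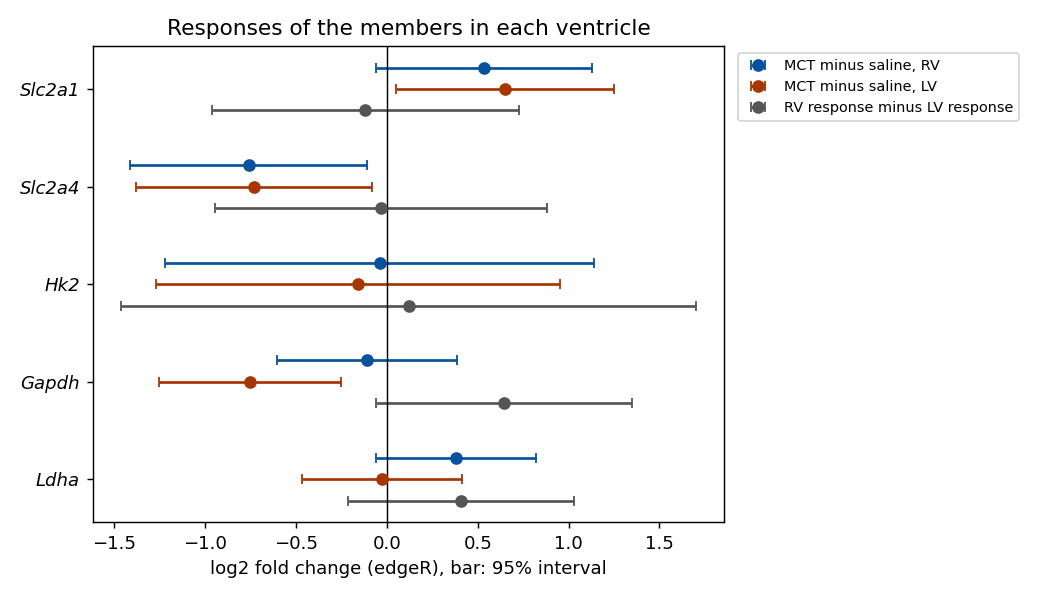
Log2 fold change (horizontal axis) of each gene for MCT against saline in the RV and the LV, and for the RV response minus the LV response, from the edgeR fit. Bars are 95% intervals; Slc2a1 and Slc2a4 have nearly the same values in both ventricles, and Gapdh is at -0.11 (RV) and -0.75 (LV).

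The balance of both transporters was also read as a count ratio within each library, which needs no scaling between libraries. It is given without a test. In RV saline replicates 1 to 5 there were 7.48, 9.73, 9.59, 5.28 and 6.85 Slc2a1 counts per 100 Slc2a4 counts. In RV MCT there were 74.6, 38.1, 10.97, 5.63 and 12.3. LV saline libraries had 5.26, 8.57, 6.80, 4.42 and 10.1 per 100.

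In LV MCT libraries there were 25.4, 11.1, 8.03, 19.8 and 45.9 Slc2a1 counts per 100 Slc2a4 counts. In each ventricle 4 of 5 MCT libraries lay above all saline libraries. The ones that did not were RV MCT replicate 4 and LV MCT replicate 3, the libraries that lay among the saline libraries on the first principal component. Mean log2 ratios differed by 1.28 between RV MCT and RV saline and by 1.45 between LV MCT and LV saline. Within RV MCT the ratio spanned from 5.63 to 74.6 per 100, so the response varied widely between libraries of 1 group. RV MCT and LV MCT libraries of the same number did not rank alike: RV MCT replicate 1 and LV MCT replicate 5 were the highest. After saline, replicates 4, 1, 3 and 2 rose in this order in both ventricles. Saline replicate 5 was the highest in the LV but not in the RV.

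**Figure D3:**
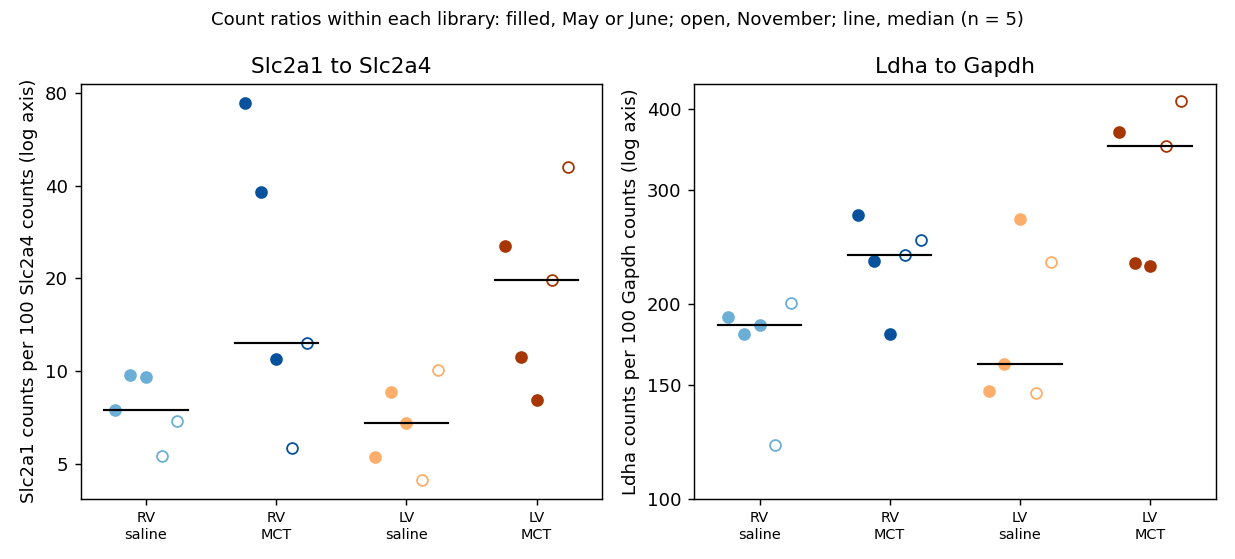
Count ratios within each library on log axes: Slc2a1 per 100 Slc2a4 counts (left) and Ldha per 100 Gapdh counts (right), with 0.5 added to each count, by group. Filled points are May or June codes, open points November, and lines are medians (n = 5); 4 of 5 MCT libraries per ventricle lie above all saline libraries on the left.

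Hk2, the insulin-regulated muscle hexokinase that commits glucose to the cell, had only 2 to 18 counts per library. In RV saline replicates 1 to 5 it had 5, 10, 16, 2 and 7 counts, and in RV MCT 7, 17, 14, 6 and 5. In LV saline it had 18, 8, 5, 9 and 7 counts and in LV MCT 15, 5, 17, 13 and 7. The groups overlapped throughout. MCT against saline gave a log2 value of -0.040 for the RV (SE 0.57, 95% interval -1.22 to 1.14) and -0.16 for the LV (SE 0.53, 95% interval -1.27 to 0.95), with edgeR adjusted p = 0.99 and 0.89. The RV interval includes changes of more than 2-fold either way, and the LV interval a decrease of more than 2-fold. Such differences are therefore not excluded. Mean Hk2 was 2.17 CPM in LV MCT and 2.15 CPM in LV saline. Without LV MCT replicate 3 the LV MCT mean was 1.37 CPM, and the LV log2 fold change was -0.69 (edgeR adjusted p = 0.40).

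Its highest CPM values, 5.37 in LV MCT replicate 3 and 4.45 in RV saline replicate 3, were in the libraries where the 10 most counted genes took 50.2% of the counts in each case. Over the 20 libraries, deviations of log2 Hk2 CPM from group means had a Pearson r of 0.71 with those of that share. For the other members this r was -0.50 (Ldha), -0.43 (Slc2a1), -0.34 (Gapdh) and -0.11 (Slc2a4). These describe libraries that share total depth with both measures. The median share was 32.1% in LV MCT and 41.6% in LV saline, and 36.6% in RV MCT and 39.6% in RV saline. The part of library composition in the values of the 5 members was not tested.

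Gapdh, often used as a reference gene, had a lower LV mean after MCT. LV saline replicates 1 to 5 were at 190.1, 166, 164, 304 and 154 CPM and LV MCT replicates at 95.8, 164, 131, 100.1 and 90.1 CPM. In 4 of 5 MCT libraries it lay below all saline libraries, and replicate 2 lay among them. Group means were 196 ± 62.1 CPM for saline and 116 ± 31.2 CPM for MCT (SD, n = 5). The log2 fold change of -0.75 (SE 0.24, 95% interval -1.25 to -0.25) just missed the threshold (edgeR adjusted p = 0.052). The exact two-sided permutation test gave p = 0.0238, or 0.159 adjusted over all genes.

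This Gapdh difference passed with DESeq2 (adjusted p = 0.025), limma voom (adjusted p = 0.0035), without LV MCT replicate 2 (edgeR adjusted p = 0.035, with 6.58% of all genes called) and without LV MCT replicate 3 (edgeR adjusted p = 0.042). Without LV saline replicate 4, the highest library, it was -0.54 (edgeR adjusted p = 0.17). It was -0.43 within May and June and -1.27 within November. RefSeq lists 78 pseudogenes named after Gapdh and 30 after Ldha, and how reads shared with such copies were counted is not given in the sources used here.

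In the RV, Gapdh was at 146, 123, 114, 218 and 138 CPM after saline and at 152, 190.1, 113, 84.4 and 144 CPM after MCT, with overlapping groups. MCT against saline was -0.11 on the log2 scale (SE 0.24, 95% interval -0.61 to 0.39, edgeR adjusted p = 0.89). RV minus LV response was 0.64 (SE 0.34, 95% interval -0.060 to 1.35, edgeR unadjusted p = 0.071, adjusted p = 0.9999), so Gapdh is not shown to respond differently in the ventricles. After saline Gapdh was lower in the RV than in the same-numbered LV library in 5 of 5 pairs, by 0.40 ± 0.14 (SD) on the log2 scale. In the edgeR fit this difference did not pass (adjusted p = 0.71, or 0.49 with the pairs as a block).

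Ldha, the muscle-type lactate dehydrogenase subunit enriched in glycolytic tissue, was the most counted of the 5 genes. RV saline replicates 1 to 5 were at 279, 221, 211, 263 and 277 CPM and RV MCT at 419, 443, 203, 201 and 362 CPM. MCT libraries thus lay either above all saline libraries (replicates 1, 2 and 5) or below all of them (3 and 4). The log2 fold change was 0.38 (SE 0.21, 95% interval -0.060 to 0.82, edgeR adjusted p = 0.37), with 0.59 within May and June and 0.063 within November. Without RV MCT replicate 3 or 4, the RV value was 0.51, without replicate 2 it was 0.25, and none of these passed.

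LV saline libraries had Ldha at 279, 269, 444, 443 and 358 CPM, and LV MCT libraries at 353, 381, 301, 351 and 372 CPM. Every MCT library lay within the saline range, and MCT libraries were closer together. The log2 fold change was -0.028 (SE 0.21, 95% interval -0.47 to 0.41, edgeR adjusted p = 0.95). Counted against Gapdh in the same library, Ldha stood at 147, 162, 270.4, 146 and 232 per 100 in LV saline and at 368, 232, 229, 351 and 412 per 100 in LV MCT, so 3 of 5 MCT libraries exceeded all saline libraries. In RV MCT 4 of 5 did, with 180 to 275 per 100 against 121 to 201 per 100 in RV saline. In the LV the divisor, Gapdh, had a log2 fold change of -0.75, and Ldha -0.028. In the RV these values were -0.11 for Gapdh and 0.38 for Ldha.

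**Figure D4:**
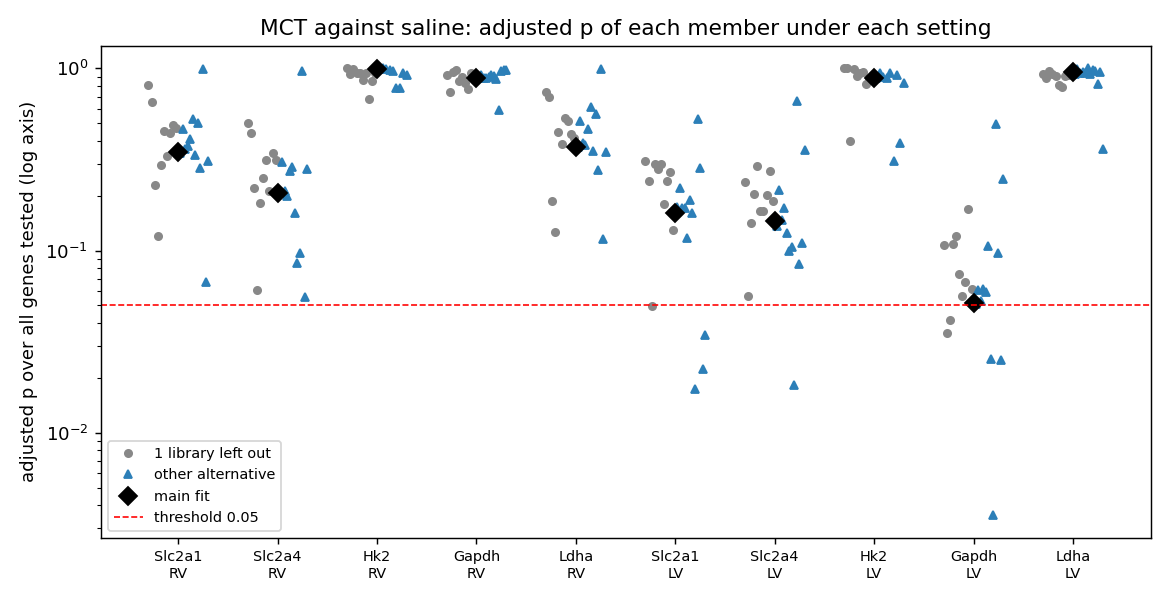
Adjusted p over all genes tested (vertical log axis) for MCT against saline, by gene and ventricle. The diamond is the main edgeR fit, circles leave out 1 library each, triangles are the other alternatives and the dashed line is the threshold of 0.05; points below it occur for Slc2a1, Slc2a4 and Gapdh in the LV and for none in the RV.

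The ventricles were compared within each treatment with the same fit. After saline, 0 of 5 members differed between RV and LV, where 0.0732% of all genes were called. At an unadjusted p under 0.05 there was 1 of 5, Ldha, against 8.32% of all genes. Ldha averaged 250.3 ± 32.2 CPM in RV saline and 358 ± 84.8 CPM in LV saline (SD, n = 5), which is -0.52 on the log2 scale (SE 0.21; 95% interval -0.96 to -0.077; edgeR adjusted p = 0.48; exact two-sided permutation p = 0.0397). RV Ldha was lower in 4 of 5 same-numbered pairs. After MCT 0 of 5 were called, where 0% of all genes were (edgeR), and at an unadjusted p under 0.05 there were again 0 of 5 against 1.86%.

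The transporters had nearly equal levels in both ventricles. Slc2a4 averaged 259 ± 46.4 CPM in RV saline and 251 ± 43.4 CPM in LV saline (SD, n = 5), with a log2 fold change of 0.043 (95% interval -0.60 to 0.69). For Slc2a1 these means were 19.6 ± 3.69 and 17.1 ± 4.53 CPM, a log2 fold change of 0.199 (95% interval -0.41 to 0.81). The intervals reach past 1.5-fold, so equality is not shown. For the difference between RV and LV responses 0 of 5 members were called, where 0% of all genes were, and 0 of 5 against 2.79% had an unadjusted p under 0.05. DESeq2 and limma voom each called 1 gene (0.00915%) for this difference and 0 genes between the ventricles after MCT. After saline they called 0.805% and 1.14% of all genes. Neither called a member in these 3 comparisons. The difference was -0.12 for Slc2a1 (95% interval -0.96 to 0.73), -0.031 for Slc2a4 (95% interval -0.95 to 0.88) and 0.41 for Ldha (95% interval -0.21 to 1.03).

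Group order by mean was RV MCT, LV MCT, RV saline, LV saline for Slc2a1, with overlap between each neighbour and the next. For Slc2a4 it was RV saline, LV saline, RV MCT, LV MCT, and only the step from the saline groups to the MCT groups exceeded 1 SD of either group. For Gapdh the order was LV saline, RV saline, RV MCT, LV MCT, and for Ldha LV saline, LV MCT, RV MCT, RV saline, with overlapping neighbours. Spread within groups differed by gene. The SD of log2 CPM within groups was 0.57 for Slc2a4, above 91.6% of the 500 genes nearest in mean level, and 0.50 for Slc2a1, above 84.2%. For Gapdh it was 0.39 (above 70.2%) and for Ldha 0.35 (above 59.8%), so neither was among the steadier genes of its level.

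How the genes varied together was described from deviations of log2 CPM from the group means over the 20 libraries, which share depth, scaling and possibly animals. Pooled over groups, Pearson r was -0.56 for Slc2a1 with Slc2a4, 0.59 for Ldha with Slc2a1, 0.59 for Ldha with Gapdh and 0.10 for Gapdh with Slc2a1. The groups did not share these values, although 5 libraries each are too few to read one from. Slc2a1 with Slc2a4 was at -0.94 in RV MCT, the group of the outlying replicate 4. It was at -0.20 in LV MCT, the group of the outlying replicate 3, -0.21 in LV saline and -0.0045 in RV saline. The part of single libraries in these values was not tested. Slc2a1 with Ldha was at 0.87 in LV MCT and 0.91 in RV MCT, but at 0.057 in LV saline and -0.53 in RV saline. Gapdh with Slc2a1 was at 0.89 in RV MCT and between -0.54 and -0.41 in the other 3 groups, and Ldha with Gapdh ran from -0.075 in LV MCT to 0.92 in RV MCT. Hk2 had negative pooled values with all 4 others, from -0.43 with Ldha to -0.20 with Slc2a1. Values this large are common in these data: 825 of 6889 genes with a mean log2 CPM of at least 3 had an r over 0.5 with Slc2a1.

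By a fixed rule the gene most like each member was sought in the same way, and the 2 most alike are given by identifier. For Slc2a4 it was ENSRNOG00000016190 (r = 0.94), whose MCT differences were -0.54 (RV, edgeR adjusted p = 0.29) and -0.89 (LV, edgeR adjusted p = 0.037). For Gapdh it was ENSRNOG00000005724 (r = 0.91 over 20 libraries), with log2 fold changes of 0.041 (RV) and 0.0073 (LV; edgeR adjusted p = 0.97 and 0.99). The LV difference of Gapdh itself was -0.75.

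**Figure D5:**
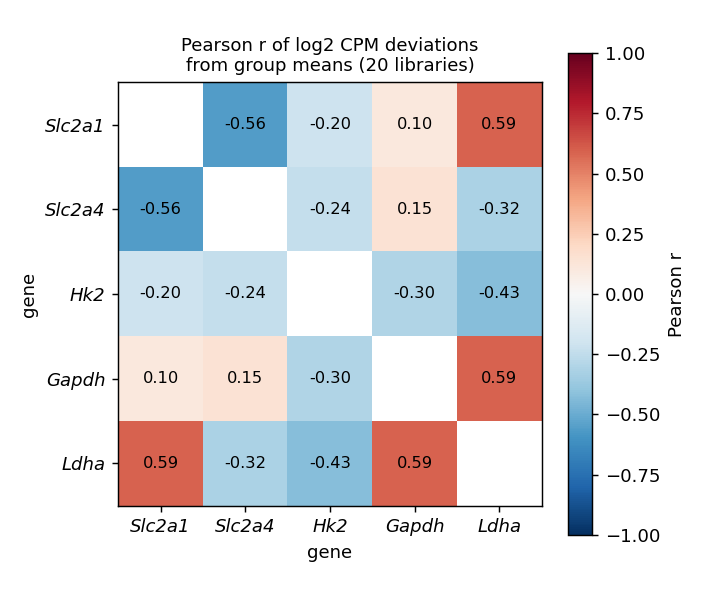
Pearson r between the 5 genes (both axes) for deviations of log2 CPM from the group means over 20 libraries, with colour from -1 (blue) to 1 (red). The highest values, 0.59, join Ldha with Slc2a1 and with Gapdh, and the lowest, -0.56, joins Slc2a1 with Slc2a4; values within single groups differed in size and, for some pairs, in sign.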

How the data were processed

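QuantSeq 3′ libraries of 20 rat ventricle samples were sequenced as 150 bp read pairs, per the labels' protocols. The authors deposited whole-number read counts for each Ensembl gene, with no normalization. STAR 2.7.10a and HTSeq 0.11.3, and the builds mRatBN7.2 and rn6 without their roles, are named in the submitters' processing notes. The strand setting and annotation release were not given in the sources used here. Columns were matched to samples by description and grouped by title.

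Of 30452 genes, 10929 passed filterByExpr and held 99.8% of the counts. Tests used edgeR 4.0.16 under R 4.3.3 (TMM, robust quasi-likelihood fit of 4 group means over 20 libraries, Benjamini-Hochberg over all genes, threshold 0.05). SE came from the F statistic. Log2 CPM used a prior count of 2, and ratios 0.5 added to each count. Exact permutation tests compared mean log2 CPM. The fit was tested on simulated counts without outlying libraries, so this does not cover the uneven MCT groups.

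Alternatives were RLE or no scaling, other filters, a month term, a replicate block, fits of only the groups compared, 1 library left out, libraries of 1 season, DESeq2 1.42.0 and limma 3.58.1 voom. Leaving out both outlying MCT libraries, and raw totals, were added after seeing the data. The members and lists were chosen with earlier results of these data known. The text names all 5 members and, as fixed, at most 2 genes most like them. A wider list of pathway genes and the cell type markers, fixed by symbol, were not tested, since the RefSeq table used (GRCr8) gave an Ensembl ID for 0 of 47357 genes. Same-numbered RV and LV libraries share a date-like code per the labels, and what it marks is not stated. Their deviations from group means correlated at -0.18 to 0.59 after saline, with 3 of 5 pairs over 0.1, and at -0.35 to 0.24 after MCT, with 2 of 5. Same-numbered MCT and saline libraries share a code in 2 of 10 pairs. Over the 40 pairs of libraries within groups, 0 were identical, and a chi-square test of their counts gave 4.87 to 136 per degree of freedom.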

Additional observations from a re-analysis of the deposited data

Results flagged for a closer look

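A library was picked out when its gap to the next library took a large share of its group's range. Among 32 sets of 5 values 6 were picked out, and chance alone picks about 1 in 20. The sets are not independent, since the ratios use the same counts as the single genes. No excess over chance is therefore read from this. In LV MCT replicate 3, Slc2a1 was at 13.0 CPM (next library 27.9) and Hk2 at 5.37 CPM (next 1.92). In LV saline replicate 4, Slc2a4 was at 327 CPM (next 246) and Gapdh at 304 CPM (next 190.1). RV saline replicate 2 had Slc2a1 at 26.1 CPM (next 18.4). RV saline replicate 4 had a log2 ratio of Ldha to Gapdh of 0.27 (next 0.85).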

How the results depend on the processing

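For MCT against saline, the signs of Slc2a4 and Slc2a1 (both ventricles), of Gapdh (LV) and of Ldha (RV) were the same in all alternatives run. Of the members in the RV, none passed in any alternative. The cause was not tested where values changed. In the LV, 0 members passed in the main fit, 1 with DESeq2 (Gapdh, 13% of all genes called), 3 with limma voom (Slc2a1, Slc2a4 and Gapdh, 26.6% of all genes called) and 0 to 2 without 1 library (the 2 without LV MCT replicate 3, with 15.2% called).

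Genes called (30 in the RV, 1040 in the LV, 0 for the difference of responses, 8 for RV against LV after saline, 0 after MCT) became 13 after saline with RLE. In the RV they became 18 with no filter, 19 with the month term and 0 with only the groups compared (80 after saline). With DESeq2 there were 402 in the RV, 1421 in the LV, 1 for the difference and 88 after saline. With limma voom there were 275 in the RV, 2911 in the LV, 1 for the difference and 125 after saline. Within May and June there were 188 in the RV, 0 in the LV and 3 for RV against LV after MCT. Within November there were 0 in the RV, 243 in the LV and 0 after saline. Leaving out 1 library gave 0 to 707 genes in the RV, 331 to 1699 in the LV, 0 to 11 after saline and 0 to 2 after MCT.

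The replicate block on the number gave 0 genes in the RV and 356 in the LV, no member passed with it, and Ldha in the LV was at 0.00089. With RV and LV pairs as the block, Slc2a4 after MCT (RV against LV) was at -0.015. That block gave 9 genes after saline, 0 after MCT and 0 for the difference, and changed no member's call. Between MCT and saline, same-numbered libraries share a code in only 2 of 10 pairs. Their deviations correlated at -0.23 to 0.21 in the RV and -0.32 to 0.22 in the LV. In the RV 0 of 5 and in the LV 1 of 5 correlated best with their own number. RV and LV libraries share a number and a code, and 3 of 5 after saline and 1 of 5 after MCT correlated best with their own.

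Log2 fold changes that turned sign were all short of the threshold. For Slc2a4, RV against LV after MCT, the values were -0.0023 with no filter, -0.052 with the month term, -0.0059 with voom and -0.69 within May and June. Voom gave 0.34 for Hk2 in the RV, 0.0081 for Ldha in the LV, and after MCT (RV against LV) -0.23 for Slc2a1 and 0.094 for Hk2. May and June gave 0.26 for Gapdh in the RV, 0.035 for Ldha in the LV, 0.061 for Ldha after MCT, and for the difference of responses 0.095 (Slc2a1) and -0.23 (Hk2). November gave 0.93 for Slc2a4 in the difference of responses, and for Slc2a1 between ventricles -0.095 after saline and -0.66 after MCT.

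Chosen after seeing the data, leaving out both LV MCT replicate 3 and RV MCT replicate 4 gave 1076 genes in the RV, 2016 in the LV, 1 for the difference, 44 after saline, and 2 members in the LV (Slc2a1, adjusted p = 0.022, and Gapdh, 0.025). Gapdh in the RV was then at 0.020, Ldha in the LV at 0.022, and after MCT (RV against LV) Hk2 at 0.23 and Slc2a4 at -0.19. Raw totals, also chosen after seeing the data, moved the median of all genes to 0.15 in the RV and 0.39 in the LV. They gave 48 genes in the RV, 2142 in the LV and 1 member (Slc2a1 in the LV, 1.05, adjusted p = 0.035), and 392 CPM for Ldha in LV MCT. The LV differences of Gapdh and Slc2a4 shrank from -0.75 to -0.43 (edgeR adjusted p = 0.25) and from -0.73 to -0.40 (edgeR adjusted p = 0.36). Hk2 was then at 0.15 in each ventricle and -0.0059 in the difference, Gapdh in the RV at 0.033, Ldha in the LV at 0.33 and Slc2a4 after MCT at -0.043.

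Without 1 library, signs turned within these ranges: Gapdh in the RV -0.26 to 0.072; Hk2 in the RV -0.32 to 0.54, in the LV -0.69 to 0.091, between ventricles after MCT -0.41 to 0.29, and in the difference -0.16 to 0.70. Ldha ranged from -0.12 to 0.059 in the LV and from -0.24 to 0.033 between ventricles after MCT. Slc2a1 ranged from -0.15 to 0.24 between ventricles after MCT and from -0.34 to 0.041 in the difference. Slc2a4 ranged from -0.22 to 0.28 between ventricles after MCT, from -0.045 to 0.157 after saline and from -0.26 to 0.25 in the difference. Hk2 did not pass the filter within November, in any fit of only the groups compared, or with the block on the number, so it has no value there, and its counts limit what could be seen.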

Other observations

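Without LV MCT replicate 3 and RV MCT replicate 4, the count ratio of Slc2a1 to Slc2a4 lay above all saline libraries in 4 of 4 MCT libraries of each ventricle. It ranged from 10.97 to 74.6 per 100 in the RV and from 11.1 to 45.9 per 100 in the LV. The mean log2 ratio then differed from saline by 1.71 in the RV and 1.75 in the LV. These libraries were left out because they resembled saline libraries, which favours such differences, so no test is given. In the remaining 4 LV MCT libraries Slc2a1 was at 29.7 ± 1.90 CPM (SD), while Slc2a4 was at 149 ± 78.8 CPM. LV MCT replicate 3 had the lowest Slc2a1 of its group (13.0 CPM), and with it the SD was 7.69 CPM. The narrow Slc2a1 spread thus follows from leaving it out.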
